A study of Mus musculus with 4 samples.

Results

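The 10 genes described here encode non-collagen components of bone matrix and its mineralization: Ibsp, Spp1, Dmp1, Bglap, Bglap2, Sparc, Mgp, Postn, Alpl and Wisp2. They were chosen by symbol, whatever their values, and all 10 were found among the 31053 features of each library. They were followed in LepR+ stromal cells and osteolineage cells, and as free RNA in other cells, in 4 single-cell libraries of mouse tibial marrow (droplet 3′-end tags counted by unique molecular identifiers, UMIs). All mice were C57Bl/6JCrl, had a VE-cadherin antibody injected intravenously before the marrow was taken, were homozygous for a floxed Vegfc allele (a growth factor gene of blood and lymphatic vessels) and were given 5 intragastric doses of tamoxifen at 7 to 8 weeks of age. Non-irradiated controls (Vegfc flox/flox, 3 pooled mice) were compared with non-irradiated Vegfc-deleted mice (RosaCreERT2;Vegfc flox/flox, 3 pooled mice), irradiated controls (2 pooled mice) and irradiated Vegfc-deleted mice (2 pooled mice). Irradiation was a whole-body dose of 4 Gy given 2 weeks after tamoxifen and 7 days before sampling. The Cre recombinase is driven from the ubiquitous Rosa26 locus, so the deletion is not limited to 1 cell type, and the Cre was carried by the deleted mice and not by the controls. The labels give tamoxifen to both genotypes in 1 place and to 3 of the 4 samples in another, and name 3 irradiated mice per genotype where 2 were pooled. Where 4 values are given, the first pair is from mice without irradiation and the second from irradiated mice, with the control before the Vegfc-deleted library in each pair. Each group is 1 library, no test was run, and every interval is a 95% interval for counting error only, not for differences between mice or preparations.

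Bone-forming cells secrete a collagen scaffold and, with it, acidic and vitamin K-dependent proteins that bind mineral and cells. Ibsp (bone sialoprotein), Spp1 (osteopontin) and Dmp1 (dentin matrix protein) belong to the SIBLING family, secreted phosphoproteins with an integrin-binding motif whose genes lie side by side. Bglap and Bglap2 encode osteocalcin, a product of mature osteoblasts that binds calcium, and Mgp encodes matrix Gla protein, an inhibitor of calcification in cartilage and vessel walls. Sparc (osteonectin) and Postn (periostin) are collagen-associated matricellular proteins, Alpl is the alkaline phosphatase that releases phosphate for mineral growth, and Wisp2 is a secreted protein of the CCN family. In marrow, LepR+ stromal cells are perivascular cells that support haematopoiesis and can give rise to osteoblasts and adipocytes, and they are known to transcribe several of these genes.

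In the annotation of the mouse genome (GENCODE M21, GRCm38), Dmp1 (ENSMUSG00000029307) lies on the plus strand at chr5:104202613-104214102, followed by Ibsp (ENSMUSG00000029306) at chr5:104299171-104311469 and Spp1 (ENSMUSG00000029304) at chr5:104435118-104441050. Bglap (ENSMUSG00000074483, chr3:88383501-88384464) and Bglap2 (ENSMUSG00000074486, chr3:88377736-88378699) are neighbours on the minus strand, beside another copy, Bglap3. The Bglap and Bglap2 transcripts were identical at 98.6% of 440 aligned bases and at 100% of their last 100 bases, the end that 3′ tags read, so the split of reads between these copies is uncertain. Postn (ENSMUSG00000027750) lies at chr3:54361109-54391037, Alpl (ENSMUSG00000028766) at chr4:137741733-137796384, Mgp (ENSMUSG00000030218) at chr6:136872435-136875823, Sparc (ENSMUSG00000018593) at chr11:55394500-55423183 and Wisp2 (ENSMUSG00000027656, Ccn5 in the annotation) at chr2:163820861-163833146.

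The 250 bases before the RefSeq start (GRCm38.p6, 5′ to 3′ on the gene's strand) are shown for the genes that the results turn on in stromal and osteolineage cells: Spp1 (chr5:104434861-104435110, plus strand), Bglap (chr3:88384467-88384716, minus strand) and Ibsp (chr5:104299037-104299286, plus strand). Capitals mark ACCACA, the core bound by RUNX factors, which was searched on both strands (TGTGGT on the other).
Spp1: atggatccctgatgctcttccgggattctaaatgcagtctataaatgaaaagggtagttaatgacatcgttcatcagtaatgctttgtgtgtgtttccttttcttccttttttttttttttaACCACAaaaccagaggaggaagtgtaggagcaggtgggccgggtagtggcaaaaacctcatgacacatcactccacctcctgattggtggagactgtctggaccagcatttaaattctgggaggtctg
Bglap: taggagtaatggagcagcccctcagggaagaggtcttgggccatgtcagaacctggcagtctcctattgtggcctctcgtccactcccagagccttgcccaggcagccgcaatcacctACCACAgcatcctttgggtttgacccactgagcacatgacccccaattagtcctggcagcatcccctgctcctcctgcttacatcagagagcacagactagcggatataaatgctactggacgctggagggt
Ibsp: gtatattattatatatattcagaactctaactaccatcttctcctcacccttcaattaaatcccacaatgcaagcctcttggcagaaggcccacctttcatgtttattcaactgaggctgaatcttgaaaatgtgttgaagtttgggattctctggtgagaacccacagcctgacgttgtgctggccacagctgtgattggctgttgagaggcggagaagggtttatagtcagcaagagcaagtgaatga
The motif began 128 bases before the start of Spp1 and 132 bases before that of Bglap, and was not in the Ibsp window. Of the 7 genes with a RefSeq window (Ibsp, Spp1, Bglap, Sparc, Postn, Dmp1 and Alpl), these 2 held it, against 14.05% of 32851 windows of all genes. The homeodomain core TAATTA, which reads the same on both strands, was in none of the 7 windows and in 4.84% of all. These matches describe the letters only.

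The libraries held 54462123 to 77284922 UMIs, and 3835 to 5205 cells per library were kept, with medians of 7632 to 9866 UMIs. Of 18105 distinct kept barcodes, 47 occurred in more than 1 library. The 10 genes were left out of the clustering and of the marker lists, so that their levels did not define the classes. Classes were named by likeness to marker lists. LepR+ stromal-like cells, called LepR+ stromal cells below, numbered 1215, 765, 472 and 190 (24.05%, 14.7%, 12.3% and 4.68% of kept cells). All 10 of their markers were found in every library. Osteolineage-like cells, called osteolineage cells below, numbered 17, 8, 128 and 78, with median depths of 18453, 19296, 36658.5 and 38248.5 UMIs. Of their 14 markers, 14, 13, 14 and 14 reached 3 counts. Levels are given as counts per 1000000 UMIs of the class (CPM). The 8 non-irradiated Vegfc-deleted cells also held all 9 chondrocyte markers, summing to 46807 CPM, against 3, 5 and 4 markers and 261, 1500 and 1441 CPM in the other libraries, where Matn1, Cnmd, Col10a1 and Ihh were at 0. A further 12 osteolineage barcodes of that library had been set aside as doublets, and the levels of this small group with those barcodes left in are given beside the results on osteolineage cells. Cells were clustered anew for this, and the class then held 22, 20, 152 and 79 cells. It also took in a cluster led by Mepe and Spp1 (5, 0, 20 and 1 cells), which matches in number the Mepe-led set described below. Values with doublets left in thus reflect both changes.

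Together the 10 genes made up 3789, 2617, 12066 and 6724 CPM of all UMIs of the libraries. Their transcripts lay in different cells before and after irradiation. LepR+ stromal cells held 89.2% and 97.3% of the Ibsp UMIs of kept cells in the non-irradiated libraries and 8.71% and 8.54% in the irradiated ones, where osteolineage cells held 89.2% and 90.3%. For Spp1 too the non-irradiated shares were the larger, with 70.8%, 92.6%, 13.3% and 18.9% in LepR+ stromal cells. With doublets left in, the LepR+ stromal shares of the non-irradiated Vegfc-deleted library were 88.7% for Ibsp and 68.0% for Spp1. Bglap lay in osteolineage cells throughout, at 97.04%, 58.1%, 99.4% and 99.4% of its UMIs, and Bglap2 at 95.4%, 59.9%, 99.3% and 99.4%. With doublets left in, the lowest of these, in the non-irradiated Vegfc-deleted library, were 96.4% and 96.8%. For Wisp2 the LepR+ stromal share was 97.5%, 98.2%, 65.1% and 76.7%. Mgp had 90.1%, 90.02%, 45.8% and 36.1% of its UMIs there, and most of the rest in pericytes or smooth muscle (7.69%, 8.12%, 25.8% and 43.2%) and, after irradiation, sinusoidal endothelium (20.3% and 16.3%). These shares depend on how many cells of each class were recovered, whereas the levels below are per UMI of the class. In sums over cells, fewer expressing cells and less RNA per cell cannot be told apart.

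**Figure D1:**
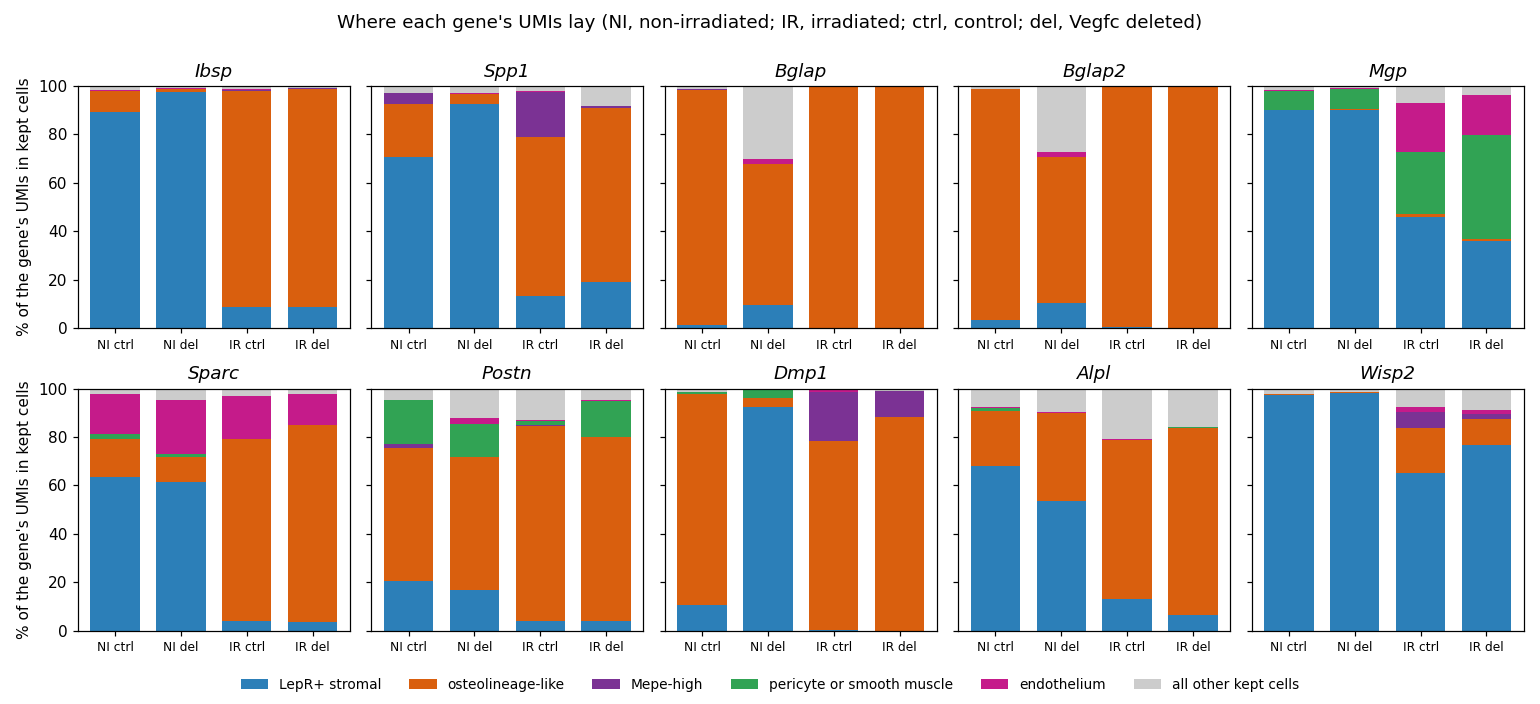
Share of each gene's UMIs by cell class (stacked bars, y axis in % of the gene's UMIs in kept cells), 1 bar per library and gene. Ibsp shifts from LepR+ stromal cells (89.2% and 97.3%) to osteolineage cells (89.2% and 90.3%) between the non-irradiated and the irradiated libraries, and Bglap stays in osteolineage cells.

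In LepR+ stromal cells the largest differences were between non-irradiated and irradiated libraries, and they concerned some of the 10 genes and not others. Ibsp stood at 6438 CPM (interval 6391 to 6485, exact Poisson), 7117 CPM (7053 to 7182), 731 CPM (707 to 757) and 914 CPM (867 to 963). Both irradiated libraries were low and both non-irradiated libraries high, in either genotype. In controls the irradiated level was 8.80-fold lower (8.50 to 9.11, exact conditional interval of the ratio), a log2 ratio of -3.14. In Vegfc-deleted mice it was lower by 7.79-fold (7.38 to 8.22), a log2 ratio of -2.96. Spp1 stood at 3298 CPM (3264 to 3331), 2394 CPM (2357 to 2431), 1509 CPM (1473 to 1545) and 2097 CPM (2025 to 2171). The irradiated control was the lowest of the 4, 2.19-fold below its non-irradiated counterpart (2.13 to 2.24), whereas the Vegfc-deleted libraries differed by a log2 ratio of -0.19 (-0.25 to -0.14). The difference between these effects was 0.94 on the log2 scale (0.87 to 1.00, counting error only). Dmp1, the osteocyte member of the family, was scarce, with 36, 24, 3 and 0 counts. The 0 counts in irradiated Vegfc-deleted cells allow a level of up to 1.97 CPM (3 counts).

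Mgp, the calcification inhibitor, stood at 2356 CPM (2328 to 2385), 1404 CPM (1376 to 1433), 298 CPM (283 to 314) and 262 CPM (237 to 289). It was low after irradiation in both genotypes. The difference was 7.91-fold (7.49 to 8.35) in controls and 5.36-fold (4.84 to 5.93) in the Vegfc-deleted pair. Wisp2 stood at 485 CPM (472 to 498), 469.6 CPM (453 to 486), 30.4 CPM (25.6 to 35.9) and 51.9 CPM (41.1 to 64.7). The irradiated libraries were lower, by 15.95-fold (13.5 to 19.0) in controls and by 9.05-fold (7.24 to 11.5) in the Vegfc-deleted pair, and the non-irradiated genotypes lay within a log2 ratio of -0.05 of each other. Sparc, which binds collagen, did not follow this order. It stood at 3106 CPM (3073 to 3138), 3656 CPM (3610 to 3702), 2750 CPM (2703 to 2799) and 3834 CPM (3736 to 3934), so that irradiated and non-irradiated levels differed by -0.18 and 0.07 on the log2 scale and the Vegfc-deleted libraries were above the controls. With TMM factors in place of the class totals, which moved all irradiation ratios of the class by -0.22 in controls and -0.18 in Vegfc-deleted mice, these Sparc ratios were -0.39 and -0.11, so the second changed sign.

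Alpl stood at 46.6 CPM (42.6 to 50.7), 62.2 CPM (56.3 to 68.5), 51.9 CPM (45.5 to 58.9) and 48.0 CPM (37.6 to 60.3), within 1.5-fold in all 4 contrasts. Postn was low, at 11.6, 7.85, 18.5 and 22.3 CPM, and 1.60-fold (1.20 to 2.12) and 2.85-fold (1.79 to 4.47) higher after irradiation, from 34 to 129 counts. Bglap was at 5.56 CPM (4.26 to 7.13), 27.9 CPM (24.0 to 32.2), 35.6 CPM (30.4 to 41.5) and 22.3 CPM (15.5 to 31.2). The non-irradiated control was the low library for Bglap and also for Bglap2, which stood at 5.47, 13.7, 28.7 and 24.3 CPM. Haematopoietic cells of the same libraries, which should lack osteocalcin, had Bglap at 1.06, 12.35, 18.1 and 18.6 CPM, lowest in the same library.

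Counted as at least 1.5-fold apart with at least 30 counts in 1 of the 2 libraries, 5 of 10 genes were lower (Ibsp, Spp1, Mgp, Dmp1, Wisp2) and 3 higher (Bglap, Bglap2, Postn) with irradiation in controls. Among all 11336 genes counted this way, 10.4% were lower and 17.4% higher. In Vegfc-deleted mice 3 of 9 were lower (Ibsp, Mgp, Wisp2) and 2 higher (Bglap2, Postn), against 12.9% lower and 17.7% higher of 10339 genes. With TMM factors the counts were 5 lower and 2 higher of 10 and 3 lower and 2 higher of 9, against 16.5% lower and 9.13% higher, and 18.1% lower and 11% higher, of all genes. The members' median log2 ratio was -0.65 in controls and -0.30 in Vegfc-deleted mice, and that of all genes 0.16 and 0.12. With cells thinned to 1500 UMIs, 1 gene in controls and 0 in Vegfc-deleted mice were counted higher, while the counts of lower genes were 5 and 3 or within 1.5 times of these under every alternative run. Apart from TMM factors, no shares of all genes were taken for these alternatives.

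**Figure D2:**
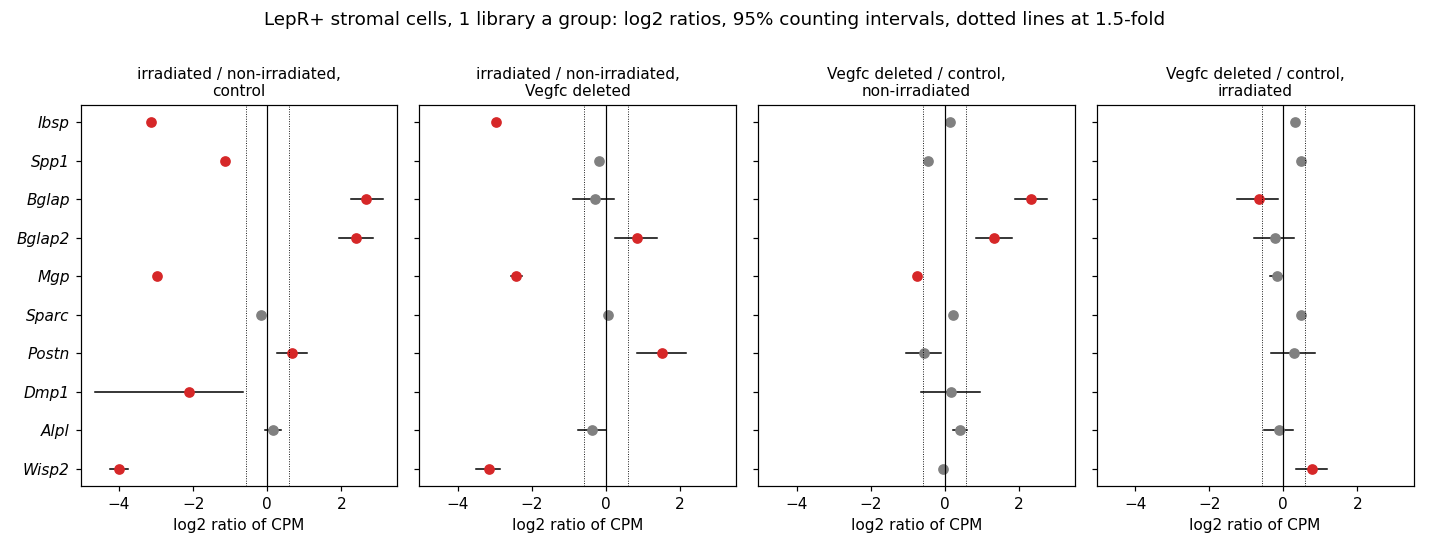
Log2 ratios of CPM in LepR+ stromal cells for the 10 genes in the 4 contrasts (points, with 95% intervals for counting error as bars), with dotted lines at 1.5-fold and red points past it. Wisp2, Ibsp and Mgp lie farthest to the lower side in both irradiation contrasts (-3.99, -3.14 and -2.98 in controls), and Sparc and Alpl lie between the dotted lines in all 4.

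The share of LepR+ stromal cells with at least 1 UMI was also lower after irradiation for Ibsp, Mgp and Wisp2. Thinned shares cover only cells with at least 1500 UMIs, which were 1197, 735, 436 and 159 LepR+ stromal cells. Ibsp was found in 93.004%, 92.2%, 49.6% and 32.1% of cells, or 89.0%, 90.3%, 28.2% and 25.2% with each such cell thinned to 1500 UMIs. In erythroid cells, which should lack it, thinned shares were 3.38%, 1.91%, 1.39% and 0.898%, at median depths of 6950, 7993, 8667 and 6936 UMIs against 9228, 8651, 9377.5 and 6761.5 UMIs in LepR+ stromal cells. Thinned shares of Mgp were 61.6%, 43.5%, 5.50% and 15.7%, and those of Wisp2 41.9%, 39.9%, 2.98% and 8.81%. Both genes were thus rare after irradiation. The order of the irradiated pair in Ibsp share and in Mgp share went against that of their CPM, so no order between genotypes is read from these shares. Thinned Sparc shares stayed between 92.5% and 94.3% in all 4 libraries. The remaining Ibsp RNA was unevenly spread: the median irradiated cell had 0 UMIs, and the 10% of cells with most Ibsp held 72.9% and 82.2% of its counts, against 30.9% and 31.4% without irradiation. For Mgp the top 10% of cells held 51.2%, 63.7%, 99.1% and 94.7%, and for Sparc 25.2%, 30.0%, 26.2% and 33.6%.

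Different clusters held most LepR+ stromal cells in the 2 states, and this stands beside every irradiation value above. Cluster 1 (led by Grem1 and Serping1) held 1072, 624, 38 and 11 cells, cluster 11 (led by Lpl and Cdh11) 11, 15, 410 and 170, and cluster 20, of shallow cells, 132, 126, 24 and 9. Within cluster 1, Ibsp stood at 6611, 7358, 2048 and 3088 CPM, lower after irradiation there too. Mgp stood at 2424, 1448, 1611 and 1170 CPM within cluster 1, a smaller gap than in the whole class, and Spp1 at 3391, 2487, 4055 and 4609 CPM, higher after irradiation. Within cluster 11, Ibsp stood at 4811, 4091, 614 and 790 CPM, where the 11 and 15 non-irradiated cells had median depths of 1384 and 1136 UMIs. Mgp stood at 2606, 3160.4, 183 and 211 CPM there. Ibsp was thus lower after irradiation within either cluster. Mgp was lower by value in both, but within cluster 1 its Vegfc-deleted pair (1448 against 1170 CPM) lay within 1.5-fold. These comparisons rest on 38 and 11 irradiated cells in cluster 1 and on 11 and 15 non-irradiated cells in cluster 11. Spp1 was higher within cluster 1 and lower in the class as a whole. Values of Wisp2 within the clusters are not given.

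Markers of mature adipocytes moved with the irradiated state in LepR+ stromal cells. The 6 markers summed to 0.0897, 0.302, 56.0 and 331 CPM, with 0, 0, 5 and 5 of them reaching 3 counts and Cidec, Lep, Retn and Adig at 0 in both non-irradiated libraries. Erythroid markers summed to 7901, 8537, 1807 and 2530 CPM. The part of either in the values of the 10 genes was not tested.

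Between genotypes the LepR+ stromal differences were smaller. Without irradiation, Mgp was 1.68-fold lower in the Vegfc-deleted library (1.64 to 1.72), Spp1 was 1.38-fold lower (1.35 to 1.40), and Ibsp and Sparc were higher by 0.14 and 0.24 on the log2 scale. Counted at 1.5-fold, 1 of 10 genes was lower (Mgp, against 4.37% of 11269 genes) and 2 higher (Bglap and Bglap2, against 2.26%). Bglap was 5.02-fold higher (3.75 to 6.81), but its thinned share of cells in that library, 3.13% (1.99 to 4.66), was not above the 3.61% (2.84 to 4.53) of erythroid cells, while its level there was 27.9 CPM against 11.6 CPM in erythroid cells. With the haematopoietic CPM of each library subtracted, an alternative added after seeing the data, its log2 ratio between these genotypes was 1.78 in place of 2.32. With irradiation, Wisp2 was the gene counted higher (1.71-fold, 1.28 to 2.265) and Bglap the one counted lower (1.59-fold, 1.10 to 2.38) of 9, against 8.2% higher and 12.6% lower of 9981 genes. Spp1 and Sparc were each 0.48 higher in the irradiated Vegfc-deleted library on the log2 scale. Without doublet removal the log2 ratio of Bglap between the irradiated libraries was 2.15, as 220 in place of 34 counts then fell in the irradiated Vegfc-deleted class.

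Osteolineage cells carried far more of most of these transcripts per UMI. The 10 genes made up 90496, 40066, 109614 and 131777 CPM of the class, against 15755, 15156, 5454 and 7276 CPM in LepR+ stromal cells. Bglap was 2026-fold (1577 to 2647), 211-fold (181 to 248), 876-fold (751 to 1027) and 2353-fold (1684 to 3398) above the LepR+ stromal level of the same library. The lowest of these, from 8 cells, was 1539-fold with doublets left in. Sparc was above it by 7.36-fold, 5.81-fold, 18.5-fold and 12.3-fold. Mgp and Wisp2 went the other way: Mgp was 126-fold, 4.18-fold, 38.6-fold and 126-fold higher in LepR+ stromal cells, and Wisp2 36.4-fold, 18.2-fold, 3.64-fold and 13.6-fold, from 5 to 65 osteolineage counts. Ibsp was higher in osteolineage cells in 3 libraries (2.93-fold, 9.85-fold and 5.57-fold) and 1.87-fold lower in the 8 non-irradiated Vegfc-deleted cells. Dmp1, from 1 to 900 osteolineage counts, was 246-fold (174 to 358) and 289-fold (98.4 to 1402) above the LepR+ stromal level in the control libraries.

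**Figure D3:**
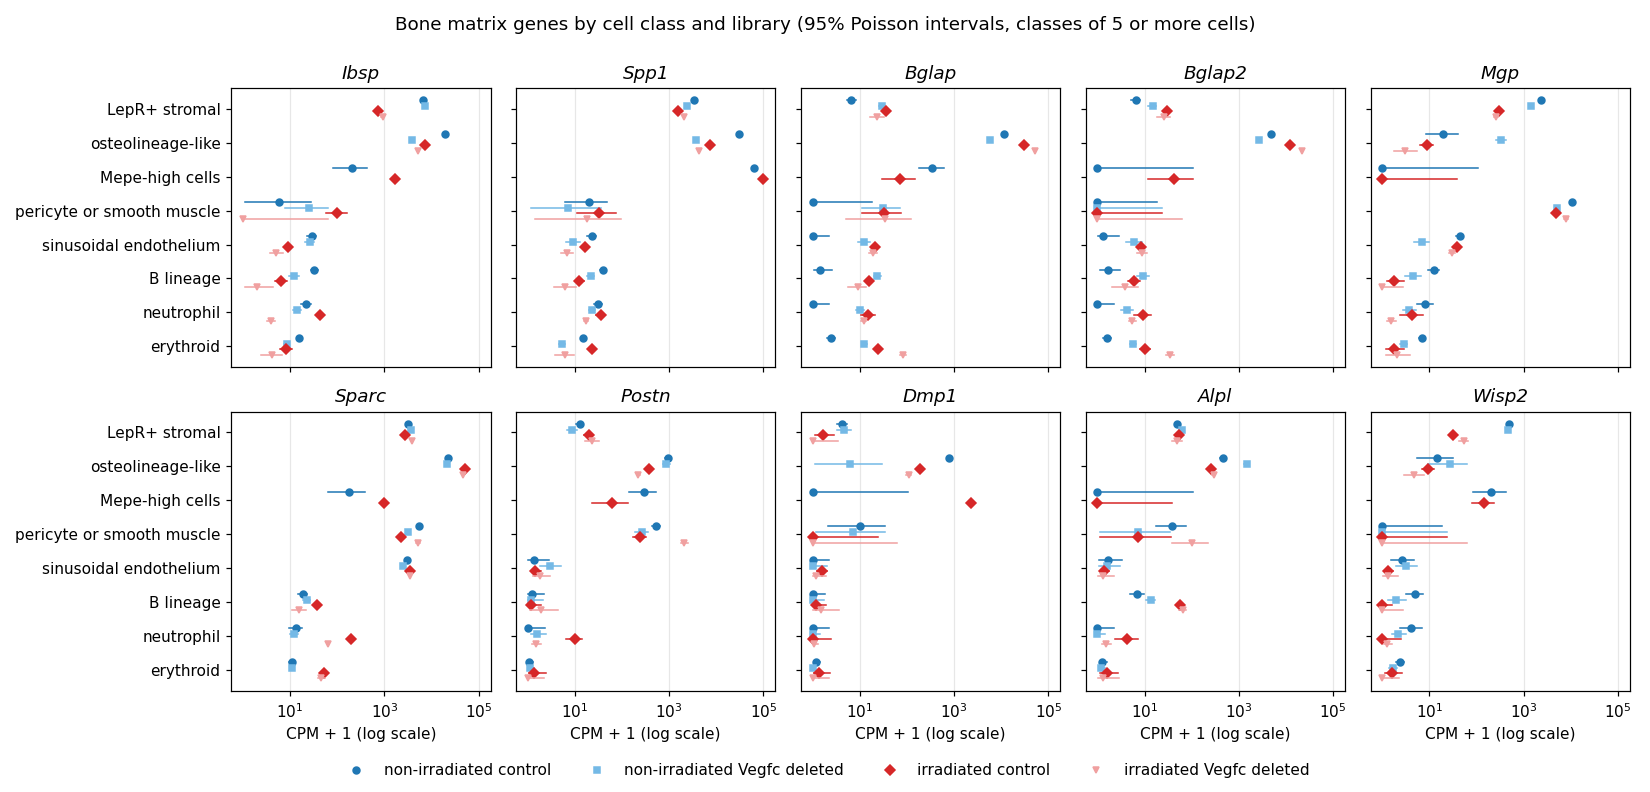
Level of each gene (10 panels, CPM + 1 on a log axis) by cell class in the 4 libraries (points), for classes with at least 5 cells. Bglap and Bglap2 stand out in osteolineage cells, Mgp in pericytes or smooth muscle and LepR+ stromal cells, Wisp2 in LepR+ stromal cells, and Sparc is high in all stromal and endothelial classes.

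Among osteolineage cells, the osteocalcin genes and the SIBLING genes were highest in different libraries. Bglap stood at 11265 CPM (10928 to 11609), 5903 CPM (5566 to 6256), 31199 CPM (31041 to 31358) and 52569 CPM (52304 to 52834), and Bglap2 at 4818, 2683, 12428 and 22188 CPM. Both were higher in the irradiated libraries than in the non-irradiated ones among kept cells. With doublets left in, however, the non-irradiated Vegfc-deleted library had more of both (39337 and 18682 CPM) than the irradiated control (29654 and 11818 CPM). Spp1 stood at 30452 CPM (29896 to 31016), 3748 CPM (3480 to 4031), 7177 CPM (7101 to 7253) and 4232 CPM (4157 to 4308), and Ibsp at 18892, 3804, 7206 and 5094 CPM. The 17 non-irradiated control cells were highest for both. With irradiation in controls, Bglap was 2.77-fold higher (2.69 to 2.86), Spp1 4.24-fold lower (4.15 to 4.33) and Ibsp 2.62-fold lower (2.56 to 2.69). Sparc stood at 22862, 21230, 50773 and 47066 CPM, 2.22-fold higher with irradiation in both genotypes (2.17 to 2.27 and 2.15 to 2.29). With doublets left in it stood at 37210 CPM in the non-irradiated Vegfc-deleted library, and the ratio in that genotype was 1.26-fold. Dmp1 stood at 794, 5.17, 188 and 108 CPM, from 298, 1, 900 and 312 counts, highest in the same 17 cells as Spp1. Postn stood at 919, 874, 372 and 221 CPM and Alpl at 461, 1458, 255 and 293 CPM. In all, 3 of 10 genes were at least 1.5-fold higher in irradiated control cells (Bglap, Bglap2, Sparc) and 7 lower, against 11.3% higher and 37.7% lower of 8210 genes, whose median log2 ratio was -0.39. With TMM factors all irradiation ratios of the class moved by 0.50 in controls, and 3 genes were higher and 5 lower (Alpl and Wisp2 then lay within 1.5-fold), against 24.3% higher and 14.7% lower of all genes. Bglap was then at 1.965, Sparc at 1.65, Spp1 at -1.59 and Ibsp at -0.90 on the log2 scale. At clustering resolution 2, where the class held 95 in place of 17 non-irradiated control cells, 3 were higher and 3 lower (Spp1, Mgp, Wisp2), and Ibsp, Dmp1, Postn and Alpl lay within 1.5-fold at -0.26, -0.45, -0.05 and -0.20. Shares of all genes were not taken at that resolution.

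Comparisons with the non-irradiated Vegfc-deleted library rest on 8 cells. There, 5 of 9 genes were counted lower than in the non-irradiated control (Ibsp, Spp1, Bglap, Bglap2, Dmp1) and 2 higher (Mgp and Alpl), against 26.1% lower and 10.9% higher of 1767 genes. With irradiation in Vegfc-deleted mice, 4 of 9 were counted higher (Bglap, Bglap2, Sparc, Dmp1) and 3 lower (Mgp, Postn, Alpl), against 16.6% higher and 35.5% lower of 6875 genes. With TMM factors, 6 were higher (Ibsp at 0.88 and Spp1 at 0.63 too) and 3 lower, against 29.7% and 16.4%. With doublets left in, 0 were higher and 5 lower (Spp1, Mgp, Postn, Dmp1, Alpl), and the log2 ratios of Bglap, Bglap2, Sparc and Dmp1 were 0.42, 0.25, 0.34 and -1.19. Shares of all genes were not taken with doublets left in, so no count in that setting can be set against them. The 12 osteolineage barcodes set aside as doublets in that library held 22313 Bglap UMIs, 87.6% of all its Bglap UMIs. With doublets left in, the class there had 20 cells, with Spp1 at 10343 CPM, Ibsp at 4025 CPM, Dmp1 at 275 CPM, Alpl at 666 CPM, Postn at 367 CPM, Mgp at 109 CPM and Wisp2 at 8.39 CPM. Bglap and Bglap2 were then above the non-irradiated control (10343 and 4411 CPM) rather than below it, and between the non-irradiated genotypes 5 genes were higher (Bglap, Bglap2, Mgp, Sparc, Alpl) and 4 lower (Ibsp, Spp1, Postn, Dmp1). Mgp there stood at 336 CPM, of which 59 of 65 counts lay in 1 cell. The chondrocyte marker level given above stands beside these values, and its part in them was not tested.

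Irradiated osteolineage cells, 128 in controls and 78 in Vegfc-deleted mice, allow a comparison of genotypes with more cells. Bglap was 1.68-fold higher (1.67 to 1.70) and Bglap2 1.79-fold higher (1.77 to 1.81) in the Vegfc-deleted library. Spp1 was 1.70-fold lower (1.66 to 1.73), and Postn, a protein of periosteum and collagen assembly at 372 and 221 CPM, was 1.68-fold lower (1.54 to 1.85). Dmp1, at 188 and 108 CPM, was 1.74-fold lower (1.53 to 1.98). Sparc, Ibsp and Alpl lay within 1.5-fold, with log2 ratios of -0.11, -0.50 and 0.20. The 2 genes counted higher and 5 lower of 10 (Mgp and Wisp2 too, from 6 to 40 counts) stand against 8.71% higher and 9.3% lower of 8426 genes.

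These osteolineage sums cover cells of unlike content. No cell of the 231 reached 10000 CPM for both Bglap and Spp1, a limit chosen after the values were seen. Bglap alone reached it in 3, 1, 57 and 45 cells, and Spp1 alone in 11, 1, 33 and 13. In the irradiated control, single cells ranged from 0 to 154474 CPM for Bglap (median 5691) and from 0 to 98752 CPM for Spp1 (median 220). In the irradiated Vegfc-deleted library the medians were 26138 and 105 CPM. With cells thinned to 1500 UMIs, the rank correlation (Spearman's rho) of Spp1 with Bglap over cells was -0.67 in the irradiated control (128 cells) and -0.67 in the irradiated Vegfc-deleted library (78 cells). Spp1 went with Postn (0.71 and 0.61) and against Sparc (-0.69 and -0.72), and Bglap with Sparc (0.68 and 0.70) and Bglap2 (0.94 and 0.96). Ibsp went with Spp1 less closely (0.43 and 0.23). These correlations are descriptions of cells of 1 library each, and Bglap and Bglap2 share near-identical reads.

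**Figure D4:**
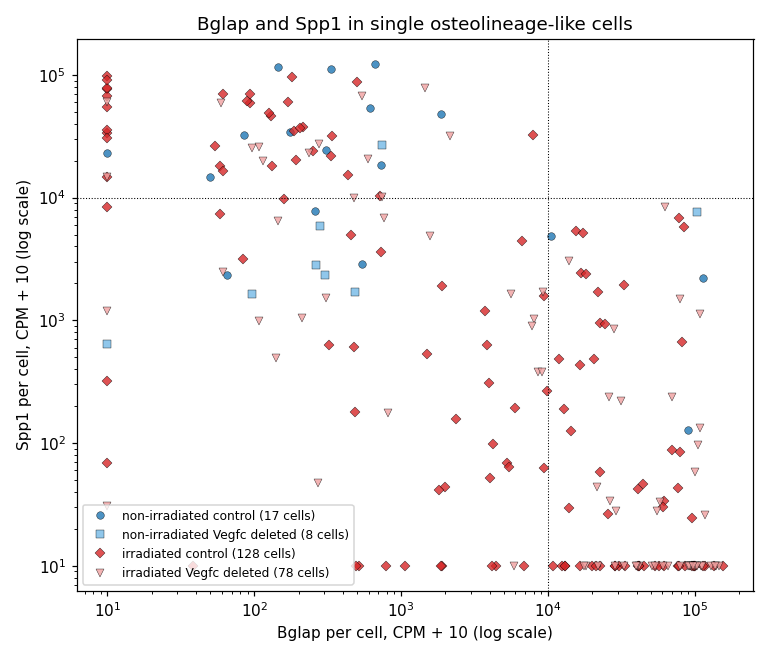
Bglap (x axis) against Spp1 (y axis) in single osteolineage cells, CPM + 10 on log axes, 1 marker style per library, with dotted lines at 10000 CPM. The upper right corner, where both would be high, is empty for all 4 libraries, with 57 and 45 cells high in Bglap alone and 33 and 13 high in Spp1 alone in the irradiated libraries.

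A finer clustering (resolution 2), also made without the 10 genes, divided the class in 2. Cluster 34 of that clustering, led by Col1a1 and Col11a1, had Bglap at 22445, 8586, 37124 and 62595 CPM, Sparc at 39898, 28207, 58497 and 54268 CPM and Spp1 at 5834, 2297, 903 and 374 CPM. Cluster 32, led by Mmp13 and joined by further cells (89, 38, 59 and 28 in all), had Bglap at 105, 147, 168 and 413 CPM, Spp1 at 14383, 4417, 32256 and 21990 CPM, Ibsp at 5617, 4470, 12021 and 9009 CPM, and Postn at 420.0, 238, 1632 and 1033 CPM. Of the cells of cluster 32, 11, 4, 38 and 20 belonged to the osteolineage class, so most of its non-irradiated cells lay outside that class. Over all cells of cluster 32, Spp1 and Ibsp were higher in the irradiated libraries, whereas both were lower in the whole class in controls. These 2 comparisons cover different cells, and the part of the further cells was not tested. Cluster 34 made up 35.3%, 50%, 70.3% and 74.4% of the osteolineage class, so the mix of the 2 kinds differed between the libraries that the class sums compare. Bglap within cluster 34 was above its non-irradiated value in both irradiated libraries, from 6 and 4 non-irradiated cells.

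Another small set stood apart from both. Its 26 cells (5, 0, 20 and 1) were led by Mepe and Sfrp4, a phosphoprotein of osteocytes and a Wnt inhibitor, and had a median of 4414 UMIs. In the 20 irradiated control cells Spp1 stood at 98844 CPM (96894 to 100823), Dmp1 at 2336 CPM (2044 to 2657), Ibsp at 1638 CPM and Bglap at 70.8 CPM, with 0 counts of Mgp and Alpl, which allow up to 30.3 CPM. The 5 non-irradiated control cells had Spp1 at 63477 CPM and 0 counts of Dmp1, which allow up to 86.7 CPM. This set held 18.7% of the Spp1 and 20.1% of the Dmp1 UMIs of the irradiated control.

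Other classes carried single members. Pericytes or smooth muscle, 18, 16, 15 and 7 cells, had Mgp at 10477 CPM (10047 to 10920), 5122 CPM (4782 to 5481), 4798 CPM (4466 to 5149) and 7954 CPM (7256 to 8701), Sparc at 5334, 3132, 2238 and 5220 CPM, and 0 counts of Wisp2, which allow up to 14.02, 18.3, 18.6 and 50.03 CPM. Mgp was above the LepR+ stromal level in every library there. Sinusoidal endothelium had Sparc at 2946, 2435, 3509 and 3498 CPM in at least 99.3% of cells, and Ibsp at 27.4, 25.0, 7.99 and 4.13 CPM. Osteoclast-like cells, 17 in the irradiated Vegfc-deleted library, had Spp1 at 348 CPM (302 to 400) and 0 counts of Ibsp, which allow up to 5.28 CPM, and basophils or mast cells had Spp1 at 77.5, 28.6, 82.4 and 48.9 CPM. Alpl appeared in B-lineage cells, at 5.86, 12.3, 55.3 and 63.7 CPM, against 0.275, 0.183, 0.571 and 0.338 CPM in erythroid cells. Within the B-lineage cluster led by Igll1 and Vpreb1 (100, 119, 290 and 104 cells) Alpl stood at 3.42 CPM (0.706 to 10.0), 24.5 CPM (17.2 to 33.9), 60.5 CPM (54.3 to 67.3) and 67.2 CPM (56.3 to 79.7), higher in the irradiated libraries, with median depths of 8231, 11295, 17218 and 14999 UMIs. It was found in 3%, 19.3%, 47.9% and 48.1% of these cells.

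As free RNA, the members gave a low share in classes that should lack them, and the make-up of this background differed between libraries. In erythroid cells Ibsp had a UMI in 15.5%, 8.94%, 4.85% and 2.05% of cells and Bglap in 0.796%, 12.6%, 17.5% and 15.8%. Of the member UMIs in erythroid cells, Ibsp made up 30.5%, 18.4%, 6.26% and 1.79% and Bglap 3.04%, 28.3%, 19.9% and 48.0%. The last value rests on 1 cell, which held 186 of 242 Bglap UMIs. Barcodes under the gene minimum, 754, 1016, 426 and 335 in number, had 112, 79.4, 136 and 110.2 CPM of Ibsp and 3.55, 185, 800.5 and 488 CPM of Bglap, where Bglap was lowest in the non-irradiated control. As a share of their member UMIs, Ibsp was 32.2%, 16.04%, 5.37% and 6.41% and Bglap 1.02%, 37.4%, 31.5% and 28.4%. By level, Bglap in erythroid cells stood at 1.45, 11.6, 23.0 and 81.7 CPM. The non-irradiated Vegfc-deleted library, with 8 kept osteolineage cells, thus lay between the non-irradiated control and the irradiated libraries in Bglap level in both kinds of barcode. Its Bglap share of member UMIs did not follow this order. That share was the highest of the 4 in barcodes under the gene minimum (37.4%) and above the irradiated control in erythroid cells (28.3% against 19.9%). Its 12 osteolineage barcodes set aside as doublets were a further holder of Bglap. The ratio of Bglap to Bglap2 counts was 2.34, 2.20, 2.51 and 2.37 in osteolineage cells and 2.47, 2.41, 2.47 and 2.40 in erythroid cells, whereas in LepR+ stromal cells it was 1.02 (0.702 to 1.47), 2.03 (1.57 to 2.64), 1.24 (0.982 to 1.57) and 0.919 (0.560 to 1.505).

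**Figure D5:**
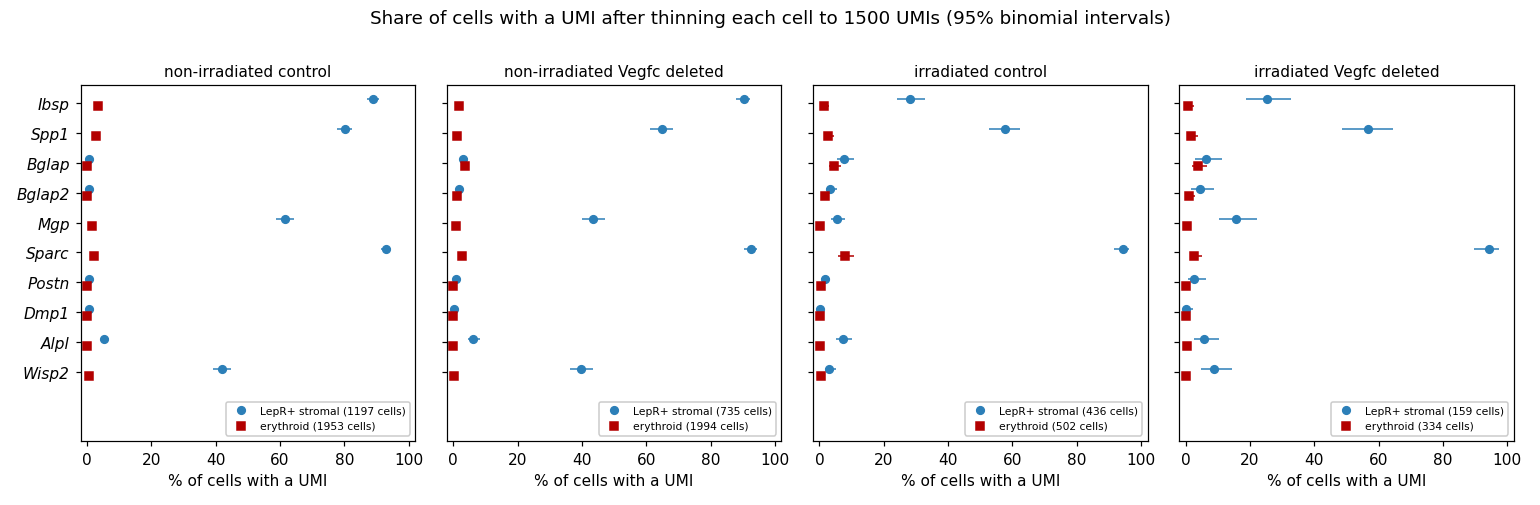
Percent of cells with at least 1 UMI of each gene, among cells of at least 1500 UMIs thinned to 1500 UMIs, in LepR+ stromal and erythroid cells of the 4 libraries (points, with exact binomial 95% intervals). Ibsp, Spp1, Sparc, Mgp and Wisp2 lie far above the erythroid share without irradiation (89.0% against 3.38% for Ibsp in the control), and Bglap lies near it.

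Read against that background, the genes stood above it to different degrees in LepR+ stromal cells. Ibsp, Spp1 and Sparc were above the thinned erythroid share in every library. Mgp and Wisp2 were above it too, although after irradiation in 5.50% and 15.7% of cells (Mgp, erythroid 0.199% and 0.299%) and 2.98% and 8.81% (Wisp2, erythroid 0.398% and 0%, where 0 of 334 cells allow up to 0.898%). For Bglap the thinned shares were 0.585%, 3.13%, 7.80% and 6.29% against 0.154%, 3.61%, 4.58% and 3.89%, with overlapping intervals in all 4 libraries. By level, however, Bglap was at 5.56, 27.9, 35.6 and 22.3 CPM against 1.45, 11.6, 23.0 and 81.7 CPM in erythroid cells. It was thus above the erythroid level, with intervals apart, in every library but the irradiated Vegfc-deleted one, where 1 erythroid cell held most of the Bglap UMIs. Thinned shares of Bglap2 were 0.585%, 1.77%, 3.44% and 4.40% against 0%, 1.25%, 1.59% and 1.20%, with intervals apart in the non-irradiated control only. Those of Postn were 0.752%, 0.952%, 1.61% and 2.52% against 0%, 0%, 0.398% and 0%, with intervals apart in both non-irradiated libraries only. Thinned shares of Dmp1 had overlapping intervals in all 4 libraries. By level, Bglap2 was above erythroid cells with intervals apart in every library but the irradiated Vegfc-deleted one (24.3 against 34.1 CPM). Postn was above them by level, with intervals apart, in all 4 libraries (11.6, 7.85, 18.5 and 22.3 CPM against at most 0.380 CPM). For Dmp1 this held in both non-irradiated libraries only (3.23 and 3.62 CPM against 0.157 and 0 CPM, where 0 counts allow up to 0.110 CPM). Alpl was above the erythroid share in all, at 5.43%, 6.26%, 7.34% and 5.66% against at most 0.299%.

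Further genes of bone matrix and mineral were read in 6 lists. Beside each list of LepR+ stromal cells with irradiation stand the shares of all genes. These were 10.4% lower and 17.4% higher in controls, and 12.9% lower and 17.7% higher in Vegfc-deleted mice, with median log2 ratios of 0.16 and 0.12. A single gene counted in a list of 7 or 8 is near these shares. TMM factors, which change the shares as given above, were not applied to the lists. In LepR+ stromal cells with irradiation, other non-collagen matrix genes had 9 lower and 3 higher of 23 counted in controls (median log2 ratio -0.35) and 11 lower and 1 higher of 22 in Vegfc-deleted mice (-0.61). Among them Cyr61, a matricellular protein of the CCN family, stood at 2538, 3459, 1446 and 675 CPM, while Bgn (biglycan) stood at 2256, 1929, 2264 and 2109 CPM and Tnc (tenascin C) at 1876, 1800.0, 1892 and 1274 CPM. Osteogenic transcription factors had 1 lower and 0 higher of 8 in controls (-0.24) and 5 lower and 1 higher of 8 in Vegfc-deleted mice (-0.79). Runx2, which drives osteoblast commitment, stood at 405, 456, 297 and 202 CPM, Dlx5 at 89.4, 104, 41.3 and 44.7 CPM, and Atf4 at 259, 255, 268 and 159 CPM. Bone collagens had 0 lower in either genotype, and 1 and 3 higher of 7 (0.42 and 0.41), with Col1a1 at 234, 209, 327 and 357 CPM, Col1a2 at 2342, 2339, 3130.0 and 2709 CPM and Col3a1 at 234, 239, 313 and 417 CPM.

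Mineral and phosphate genes had 3 lower and 2 higher of 10 in controls (-0.18) and 3 lower and 1 higher of 10 in Vegfc-deleted mice (-0.36). Anxa5, a calcium-binding annexin, stood at 313, 274, 192 and 291 CPM, Phex, an endopeptidase that regulates phosphate, at 189, 252, 188 and 145 CPM, and Vkorc1, which recycles the vitamin K that osteocalcin and Mgp need, at 142, 143, 121 and 152 CPM. The osteocyte list had 1 lower of 3 in controls (-0.43) and 3 lower of 3 in Vegfc-deleted mice (-1.15), with Phex as above, Irx5 at 58.8, 76.4, 43.7 and 34.2 CPM and Ptprz1 at 8.61, 11.2, 5.21 and 1.97 CPM. Receptors for osteopontin and bone sialoprotein had 2 lower and 1 higher of 8 in each genotype (0.14 and -0.09), with the integrins Itgb1 at 538, 524, 559 and 585 CPM, Itgav at 138, 153, 137 and 136 CPM and Itga9 at 68.3, 52.7, 84.9 and 51.9 CPM. Between non-irradiated genotypes these 6 lists had 0 to 2 genes counted on either side, with medians from -0.06 to 0.38. Over all 11269 genes, 2.26% were higher and 4.37% lower there.

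In osteolineage cells of irradiated controls, bone collagens had 6 higher and 1 lower of 7, with a median log2 ratio of 1.41, and Col1a1 stood at 57757, 22253, 148830.0 and 121984 CPM. With doublets left in, Col1a1 stood at 52886.5, 84831, 142719 and 121840 CPM, a smaller gap in Vegfc-deleted mice. Among kept cells the irradiated libraries were above the non-irradiated ones, as for Sparc, Bglap and Bglap2. Mineral genes had 3 higher and 2 lower of 12 there (0.22), transcription factors 2 higher and 3 lower of 8 (-0.20), and the osteocyte list 2 higher and 2 lower of 6 (0.20). Other matrix genes had 6 higher and 5 lower of 18 (-0.03), and receptors 2 lower of 6 (-0.31). These counts stand against 11.3% higher and 37.7% lower of 8210 genes, with a median log2 ratio of -0.39. With TMM factors, which were not applied to the lists, 24.3% of all genes were higher and 14.7% lower.

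Genes with the most similar pattern were sought over 32 class and library sums (11 classes, 7982 genes, Pearson's r of log2(CPM + 1)), which share libraries and depth. For Ibsp these were Tnc (0.96), Vasn (0.96) and Ptprd (0.96), and for Spp1 Fxyd1 (0.96), Olfml3 (0.95) and Pcdh18 (0.95). For Sparc they were Serpinh1, the collagen chaperone (0.97), Ppfia2 (0.97) and Fkbp10 (0.97), and for Mgp Lepr (0.94), Ebf3 (0.93) and Fbln5 (0.93). With a pseudocount of 10 CPM, Fxyd1 and Serpinh1 stayed among the 3 nearest genes, and the other 10 were replaced.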

How the data were processed

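Per the labels' protocols, viable marrow cells negative for CD45, Ter119 and lineage markers were sorted and captured for 3′ single-cell sequencing, 1 library per group. The deposited matrices hold raw UMI counts per gene and barcode, made by the authors with Cell Ranger 2.1.1 on mm10 per the submitters' processing notes, or with software 3.1.0 per the file headers. How reads of near-identical genes were counted is not stated in either.

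Barcodes with under 500 genes or over 10% mitochondrial UMIs were left out (2071, 2200, 1175 and 895), as were the barcodes with the highest Scrublet scores in scanpy 1.11.5, at a rate that grows with the number of barcodes (444, 479, 212 and 211, or 5.96%, 6.19%, 4.12% and 4.11%, some of which also failed the first filter). Cells of all libraries were clustered together without batch correction (2000 variable genes without the 10 members, 40 components, 20 neighbours, Leiden resolution 1, leidenalg 0.10.2, seed 7), and the 34 clusters were named from 21 marker lists. A cluster with osteoclast markers was mixed and was divided further. The counts of a class were added up in each library and divided by the class total (CPM, per 1000000), with exact Poisson, binomial and conditional intervals at 95%. Log2 ratios used a prior of 0.5 counts. A gene was counted as higher or lower at 1.5-fold with at least 30 counts in 1 of 2 libraries. The log2 ratios, the counting rule and the conditional intervals were tested on simulated class sums with counting error only. The Poisson intervals were not part of that test. Alternatives included TMM factors from edgeR 4.0.16 in R 4.3.3.

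All 10 members are named whatever their values. Of each of the 6 pathway lists, the 3 genes with the highest CPM in LepR+ stromal cells of the non-irradiated control are named, and other genes only where a count or cluster needs them. Members and lists were chosen with earlier results of these data known. No feature was found for 1 marker gene, Snorc.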

Additional observations from a re-analysis of the deposited data

Results flagged for a closer look

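Dmp1 in osteolineage cells had effects of irradiation of opposite sign in the genotypes, with a log2 ratio of -2.08 in controls and 3.80 in Vegfc-deleted mice, a difference of 5.88 (3.56 to 8.21, counting error only). The difference was not tested, since each group is 1 library. The second ratio rests on 1 Dmp1 count in 8 non-irradiated cells against 312 counts in 78 irradiated cells, and was -1.19 with doublets left in.

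Barcodes marked as doublets in the non-irradiated Vegfc-deleted library, which were left out of the comparisons unless doublets are said to be left in, held 22313 Bglap UMIs in 12 barcodes that join the osteolineage class when they stay in. These barcodes had a median of 35834 UMIs and Bglap at 55394 CPM, and held 28.9% of the library's UMIs of the 10 genes. The corresponding barcodes of the other libraries numbered 0, 5 and 0.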

How the results depend on the processing

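Log2 ratios of single genes were recomputed under each alternative. In LepR+ stromal cells 330 of 418 stayed within the counting interval of the main ratio, whatever their sign, and 87 moved beyond it. Direction was checked for called ratios only, which kept it in 197 of 198 cases. The exception was Bglap between irradiated genotypes, at 2.15 with no doublets removed. In osteolineage cells 186 of 380 stayed within the interval and 187 moved beyond it, and called ratios kept their direction in 303 of 310 cases. All but 1 of the 7 exceptions are between the non-irradiated genotypes: Mgp at -0.39 (resolution 2) and -0.060 (resolution 0.5), Bglap at 1.93 (no doublets removed), 0.10 (thinned to 1500 UMIs) and 0.022 (mean of per-cell CPM), and Bglap2 at 2.08 (no doublets removed). The other is Dmp1 with irradiation in Vegfc-deleted mice, at -1.19 with no doublets removed. The cause was not tested. When doublets stay, 12 further cells enter in the non-irradiated Vegfc-deleted library. A cluster led by Mepe and Spp1 (5, 0, 20 and 1 cells) then also counts as osteolineage, and the class holds 22, 20, 152 and 79 cells.

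Counts of genes in LepR+ stromal cells with irradiation moved on the higher side. In controls the count was 1 in place of 3 when thinned. In Vegfc-deleted mice it was 1 in place of 2 at resolution 2 and at a 2-fold limit, and 0 when thinned. Between non-irradiated genotypes the count of higher genes was 0 in place of 2 when thinned, and that of lower genes was 2 in place of 1 with no doublets removed and without the shallow cluster (an alternative added after seeing the data), and 0 at 2-fold. Between irradiated genotypes the count of higher genes, 1, became 3 at resolution 2 and with no doublets removed, 2 when thinned, and 0 with the mean of per-cell CPM and at 2-fold. The count of lower genes there, 1, became 0 under each of these 5 settings and 2 with no count minimum.

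In osteolineage cells, 7 genes lower with irradiation in controls became 3 at resolution 2 and 5 to 7 otherwise. The 4 higher in Vegfc-deleted mice became 0 with no doublets removed and 3 to 6 otherwise. Shares of all genes stand beside the counts of the main setting and of TMM factors only.

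Thinning, which removes UMIs, lowered 34 of 40 shares of erythroid cells with a UMI of a member. No paired analysis was possible because each group is 1 library. Depth limits Dmp1, Postn, Bglap and Bglap2 in LepR+ stromal cells and the number of cells (17 and 8) limits every gene in non-irradiated osteolineage cells.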
